A study of Mus musculus with 48 samples.

Results

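The comparison described here is that of corticosterone with vehicle in mice on the control diet: 14 Cort_CON libraries against 10 EtOH_CON libraries, 24 of the 48 libraries of the series. They were chosen by the group in their labels, and all genes were described. RNA came from mixed gastrocnemius, a hindlimb muscle of mainly fast fibres, of male C57BL6J mice whose age is not given in the labels. EtOH_CON mice drank water with 1% ethanol and Cort_CON mice water with 100 ug/ml corticosterone for 2 weeks, and both groups ate Teklad 8640 without atglistatin. Whether the corticosterone water held ethanol too is not stated. The remaining 24 libraries came from mice given the same waters with 571 mg/kg of the lipase inhibitor atglistatin in the diet. All of these mice are labelled nondiabetic. Their libraries entered the fit for its estimate of spread and are described only where the diets were compared. Of the Cort_CON mice, 9 are labelled diabetic and 5 nondiabetic, and all EtOH_CON mice are nondiabetic, so hormone and diabetes are partly mixed in this comparison. The labels give glucose and insulin separately for every library, and a library is called a mouse here although no label says so; p-values measure the spread between these libraries.

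Corticosterone is the main glucocorticoid of mice. It binds the glucocorticoid receptor, which enters the nucleus, binds DNA at glucocorticoid response elements and raises or lowers transcription of nearby genes. Muscle is a main target: glucocorticoids are known there for protein breakdown, use of fat in place of glucose, reduced insulin action, and, in other cells of the tissue, reduced matrix production and immune activity. Reads came from the 3′ ends of transcripts and were counted per gene. Levels are given as CPM, read counts scaled to a common library total after TMM normalisation, and differences as log2 fold changes of Cort_CON against EtOH_CON with their standard errors (SE). A gene was called higher or lower when the adjusted p of edgeR's quasi-likelihood test was under 0.05.

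Libraries held 12259500 to 20316002 counts in EtOH_CON and 10585234 to 22921262 in Cort_CON. No pair within a group agreed within sampling noise, with a chi-square per degree of freedom of at least 7.94 on the counts as deposited. EtOH_CON mouse 1 stood apart from its group: it had the lowest median correlation with its group (0.952) and lay alone on the second principal component. Without it 4688 genes were called, 2321 higher and 2367 lower, 4398 of them in common with the full comparison in the same direction. With any 1 library left out between 4583 and 4918 genes were called. Among Cort_CON mice the lowest median correlation with the group was 0.962, in mouse 45. Because the counting strand is not given, a gene with a counted gene on the other strand cannot be told apart from it. Of those named here, cell type markers aside, these are Aldoa, Angptl2, Atp2a1, Car14, Ccnd1, Cebpb, Cebpd, Chad, Dbp, Des, Dusp10, Eef1b2, Fgf2, Glul, Hdac7, Hectd2os, Hspb6, Igfbp7, Jun, Lpcat3, Mcm7, Mrtfa, Nmrk2, Nr1d1, Opn1mw, Plin4, Prodh, Rab6a, Smyd1, Syn2 and Timp4.

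Of 12592 genes tested, 4838 passed the threshold (38.4%), 2384 higher (18.9%) and 2454 lower (19.5%). These shares are the background for all counts of family members given below. The balance was uneven among the 941 genes (7.47%) that changed at least 2-fold, of which 351 were higher (2.79%) and 590 lower (4.69%). That lean came from genes of low level: with a mean of at least 5 CPM, 200 were higher and 155 lower at least 2-fold. Small rises were common, with 1417 of the higher genes under 0.5 on the log2 scale against 886 of the lower ones, while 978 lower and 616 higher genes lay between 0.5 and 1. At the far end the order turned again, with 36 genes higher and 20 lower by 3 or more. In 593 genes (4.71%) the CPM ranges of the 2 groups did not overlap, 299 with every Cort_CON mouse above every EtOH_CON mouse (2.37%) and 294 with every one below (2.33%). The split of calls rests on the scaling of the libraries: 49.3% of the called genes were higher with TMM, 47.9% with DESeq2's size factors, 39.5% with upper quartile scaling and 29.2% with total counts alone, which moved the median of all genes by -0.114 on the log2 scale. Changes are given relative to the TMM scale, on which that median was -0.0011.

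**Figure D1:**
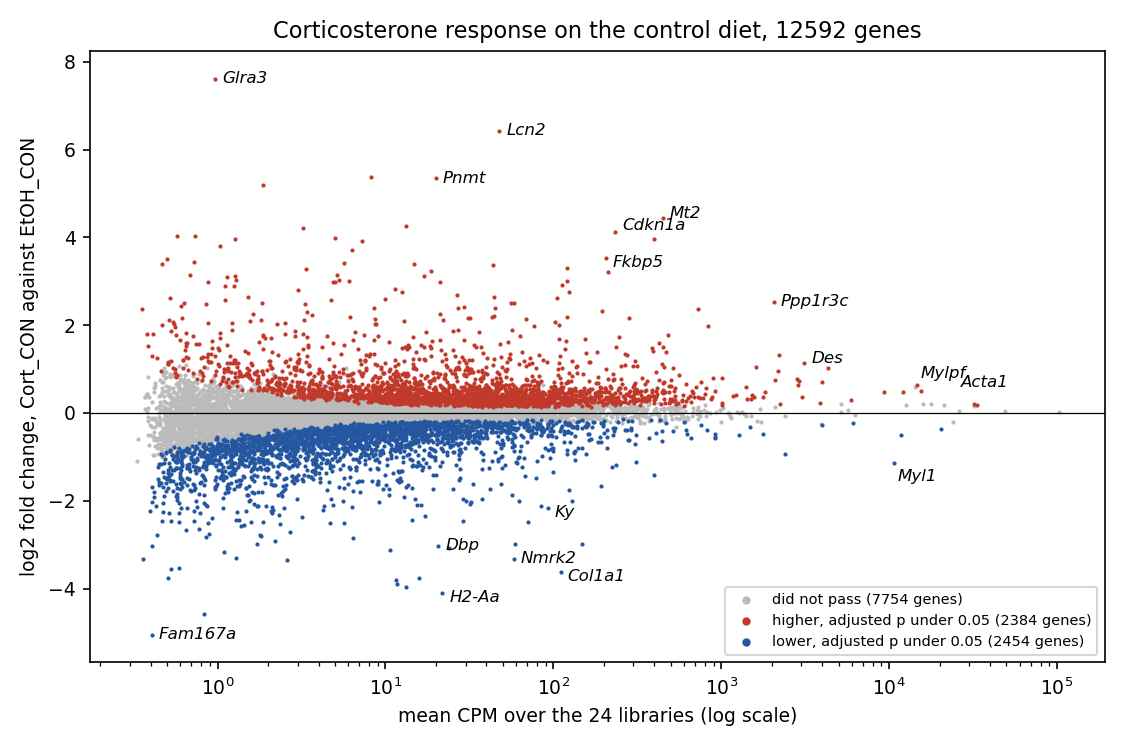
Log2 fold change of Cort_CON against EtOH_CON (vertical axis) against mean CPM over the 24 libraries (horizontal axis, log scale), 1 point per gene. Red points (2384 genes) were called higher, blue points (2454) lower, and grey points did not pass. Called genes under 20 CPM are more often blue and those above more often red, and the height of Glra3, which had no counts in EtOH_CON, depends on the prior count.

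Direction went with mean CPM over the 24 libraries, a level that the response itself moves. Among genes under 1 CPM, 5.25% were called higher and 17.8% lower. The shares were 17.3% and 21% between 5 and 20 CPM, and they crossed above that: 31.7% and 15.2% between 20 and 100 CPM, 42.8% and 11.2% between 100 and 1000 CPM, and 44.6% and 12.2% above. Called genes of at least 20 CPM were thus more often higher than lower, and those of under 20 CPM more often lower. Genes averaging under 20 CPM together held 5.35 ± 0.262% of the counts of a library in EtOH_CON and 4.78 ± 0.334% in Cort_CON (SD, n = 10 and 14; permutation test, two-sided, p = 4e-05, adjusted over 4 such shares p = 0.00016). These genes were chosen by their mean over the same libraries, at the level where the calls crossed. Genes that fell enter such a set more readily than genes that rose, so this test does not bear on the pattern by abundance. At the top, the 10 most abundant genes of each library fell from 36.48 ± 1.3% to 34.96 ± 1.26% of its counts (SD, n = 10 and 14; permutation test, p = 0.00896, adjusted p = 0.0179), and the share of the mitochondrial genome, 25.1 ± 1.6% and 24.6 ± 1.47%, did not differ past the threshold (p = 0.43 by permutation, adjusted p = 0.573).

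**Figure D2:**
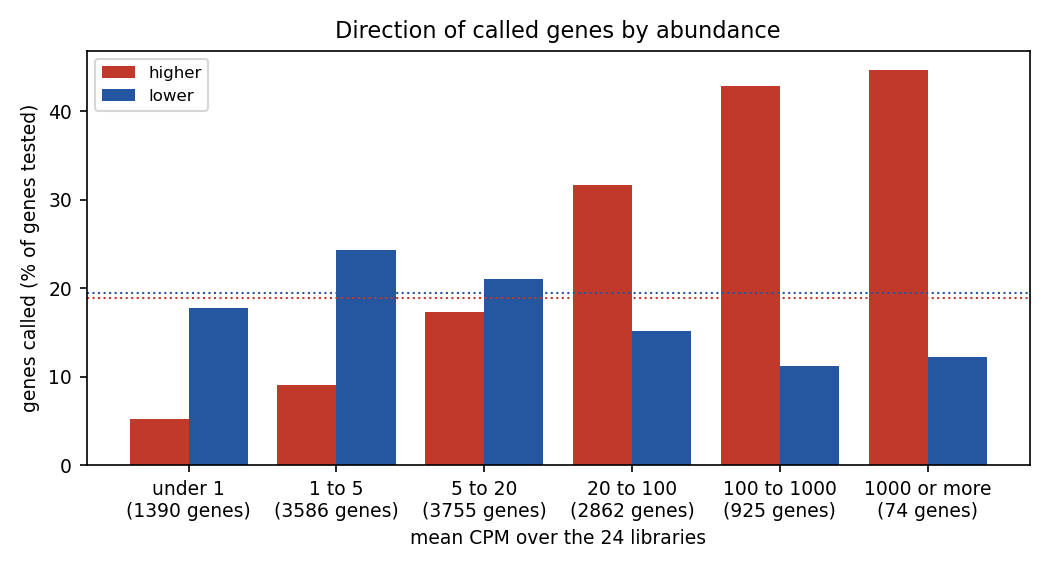
Share of tested genes called higher (red bars) and lower (blue bars) in Cort_CON, in percent, by mean CPM over the 24 libraries. Dotted lines mark the shares over all genes, 18.9% higher and 19.5% lower. The share of higher calls climbs from 5.25% under 1 CPM to 44.6% at 1000 CPM or more, and the share of lower calls is largest between 1 and 5 CPM, at 24.3%.

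Letters of the glucocorticoid response element were searched in RefSeq promoters (GRCm38.p6, 250 bases before to 50 bases after the gene start), which were found for 9523 of the 12592 genes. The motif GNACANNNTGTNC, which reads the same on both strands, stood in 40 of these promoters (0.42%). It stood in 13 of 256 promoters of genes that rose at least 2-fold (5.08%), in 0 of 414 of genes that fell at least 2-fold, in 21 of 1880 of all genes called higher (1.12%) and in 4 of 1849 called lower (0.216%). Its core ACANNNTGT, contained in the longer motif, was in 5.19% of all promoters, 14.8% of those of genes that rose at least 2-fold and 6.28% of those that fell at least 2-fold. The full palindrome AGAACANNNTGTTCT was found in a single promoter, that of Sgk1. These are counts of letters and not of bound sites, and no test was run on them.

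The stretches below show the motif, in capitals, with its flanks on the strand of the gene, for genes that rose and whose roles span the response. They are Mt1, which encodes a metal-binding metallothionein (chr8:94178971-94179031, plus strand), the muscle ubiquitin ligase gene Trim63 (chr4:134314888-134314948, plus strand), the carbonic anhydrase gene Car14 (chr3:95904874-95904934, minus strand), the kinase gene Map3k6 (chr4:133240613-133240673, plus strand), the amylase gene Amy1 (chr3:113577930-113577990, minus strand), and Sgk1, which encodes a kinase known as a glucocorticoid target in other tissues (chr10:21993678-21993738, plus strand). The pair Serpina3n (chr12:104406606-104406666, plus strand) and Serpina3c (chr12:104153911-104153971, minus strand), neighbouring serine protease inhibitor genes, is shown because the motif letters are the same in both. Coordinates are those of the printed bases.
Mt1: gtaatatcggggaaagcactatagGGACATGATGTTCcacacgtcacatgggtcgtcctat
Trim63: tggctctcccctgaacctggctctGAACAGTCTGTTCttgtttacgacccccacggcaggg
Car14: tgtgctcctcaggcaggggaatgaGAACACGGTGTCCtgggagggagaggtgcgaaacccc
Map3k6: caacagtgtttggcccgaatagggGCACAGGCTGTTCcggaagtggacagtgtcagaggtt
Amy1: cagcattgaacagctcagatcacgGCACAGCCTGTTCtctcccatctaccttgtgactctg
Sgk1: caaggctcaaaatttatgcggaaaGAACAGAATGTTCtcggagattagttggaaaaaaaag
Serpina3n: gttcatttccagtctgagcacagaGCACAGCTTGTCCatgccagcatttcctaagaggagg
Serpina3c: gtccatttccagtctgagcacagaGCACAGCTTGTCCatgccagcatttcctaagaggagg

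The genes behind these stretches, chosen after their values were seen, differed in level and in rise. Trim63 ran from 233 to 356 CPM (median 326) in EtOH_CON and from 488 to 2646 CPM (median 924) in Cort_CON, with log2 fold change 1.97, SE 0.24, adjusted p = 6.32e-09. Car14 ran from 30.1 to 48.2 CPM (median 39.8) in EtOH_CON and from 93.9 to 213 CPM (median 151) in Cort_CON, with log2 fold change 1.999, SE 0.12, adjusted p = 4.02e-19. Neither gene's groups overlapped. Map3k6 rose from a median of 3.52 to 11.5 CPM (log2 fold change 1.66, SE 0.22, adjusted p = 1.86e-08) and Amy1 from 31.1 to 61.5 CPM (log2 fold change 1.05, SE 0.10, adjusted p = 3.8e-13), also without overlap, while Sgk1, with the full palindrome, rose only by 0.69 (SE 0.14), with overlapping groups. Serpina3n ran from 1.72 to 5.22 CPM (median 2.94) in EtOH_CON and from 7.0 to 29.3 CPM (median 12.5) in Cort_CON, with log2 fold change 2.02, SE 0.51, adjusted p = 0.00143, and Serpina3c from 1.31 to 5.05 CPM (median 3.07) in EtOH_CON and from 1.92 to 6.57 CPM (median 3.35) in Cort_CON, with log2 fold change 0.28, SE 0.24, adjusted p = 0.369. The motif letters thus stood before 1 gene whose groups did not overlap and before a neighbour that did not pass the test. Reads of this gene family, and of Amy1 and its neighbouring amylase genes, may have been divided between near-identical copies.

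Leaving out genes averaging under 5 CPM, Lcn2 rose most, which encodes the secreted, iron-siderophore-binding protein lipocalin 2. It ran from 0.575 to 1.47 CPM (median 0.907) in EtOH_CON and from 26.4 to 175 CPM (median 65.1) in Cort_CON. The lowest Cort_CON mouse was thus well above the highest EtOH_CON mouse, and the Cort_CON mice ranged widely. Pnmt, which makes adrenaline from noradrenaline and is best known from the adrenal medulla (chromosome 11, 98386450 to 98388181), ran from 0.401 to 1.49 CPM (median 0.734) in EtOH_CON and from 11.5 to 99 CPM (median 29.1) in Cort_CON (log2 fold change 5.34, SE 0.38, adjusted p = 1.07e-15). Gnmt, the glycine methyltransferase that uses up methyl groups of S-adenosylmethionine (chromosome 17, 46725664 to 46729168), ran from 0.316 to 1.94 CPM (median 1.09) in EtOH_CON and from 8.63 to 39.4 CPM (median 21.6) in Cort_CON (log2 fold change 4.27, SE 0.29, adjusted p = 9.66e-17). Both enzymes were under 2 CPM in every EtOH_CON mouse and above 8 CPM in every Cort_CON mouse.

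The 2 metallothioneins were already present in EtOH_CON. Mt2 ran from 17.1 to 100.2 CPM (median 30.3) in EtOH_CON and from 271 to 1808 CPM (median 529) in Cort_CON and Mt1 from 26.7 to 83.6 CPM (median 36.3) in EtOH_CON and from 259 to 1394 CPM (median 494) in Cort_CON, log2 fold changes of 4.45 (SE 0.50) and 3.96 (SE 0.42). Their large SEs go with a wide spread among Cort_CON mice. Zinc transporters moved too: Slc30a2 rose by 1.66 (SE 0.20) and Slc39a14, an importer of zinc and iron, by 2.60 (SE 0.40), although the list of metallothioneins and zinc transporters as a whole had 4 of 19 members higher and 2 lower, or 6 lower with total counts alone, with a median of -0.141.

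Cell cycle genes went in opposite directions. Cdkn1a, an inhibitor of cyclin-dependent kinases, ran from 12.6 to 29.96 CPM (median 24.3) in EtOH_CON and from 113 to 629.8 CPM (median 336) in Cort_CON (log2 fold change 4.11, SE 0.32, adjusted p = 1.95e-14). Ccnd1, a D-type cyclin that drives entry into the cell cycle, ran from 6.81 to 16 CPM (median 11.1) in EtOH_CON and from 1.08 to 2.72 CPM (median 1.93) in Cort_CON (log2 fold change -2.50, SE 0.18, adjusted p = 1.81e-17). In neither gene did the groups overlap. Around them the list of cell cycle inhibitors and p53-linked genes was mixed, with 8 of 30 higher and 7 lower, or 5 and 8 with total counts alone. Trp53inp1 and Sesn1, stress-response genes, rose by 1.49 (SE 0.18) and 1.89 (SE 0.23). Of 18 proliferation genes 4 rose and 5 fell, with the mitotic kinase gene Aurka at -1.29 (SE 0.16) and Mcm7 and Pcna, of DNA replication, at 0.47 (SE 0.10) and 0.38 (SE 0.10). With total counts alone Pcna no longer passed (0.27, adjusted p = 0.0505).

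The other large rises were spread over unrelated functions. Fkbp5, which binds the receptor complex as a co-chaperone, had the smallest p of all genes and ran from 18.8 to 37.9 CPM (median 27.3) in EtOH_CON and from 227 to 456 CPM (median 326) in Cort_CON. Klk1b26, of the kallikrein protease family, rose by 5.38 (SE 0.43) from a median of 0.257 CPM. Its near-identical relatives make its count uncertain, as do those of the acyl-CoA thioesterase gene Acot1, at 3.01 (SE 0.34). Secreted signals were among them: Bmp8a, of the bone morphogenetic protein family (3.42, SE 0.33), the stanniocalcin gene Stc2 (3.15, SE 0.31) and Fibin (3.37, SE 0.19). Pik3r1, a regulatory subunit of PI3 kinase, ran from 7.21 to 27.1 CPM (median 20.1) in EtOH_CON and from 130.0 to 282 CPM (median 192) in Cort_CON, with every Cort_CON mouse above every EtOH_CON mouse. Odf3l2 rose by 3.20 (SE 0.18) and the potassium leak channel gene Kcnk1 by 3.91 (SE 0.39). Genes that are hard to assign because a counted gene lies on the other strand were Hectd2os (3.24, SE 0.29), which lies opposite Hectd2, the cone opsin gene Opn1mw (3.03, SE 0.44), and the synapsin gene Syn2 (3.71, SE 0.27). Syn2 overlaps Timp4, a metalloprotease inhibitor gene that itself rose by 0.99 (SE 0.12).

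**Figure D3:**
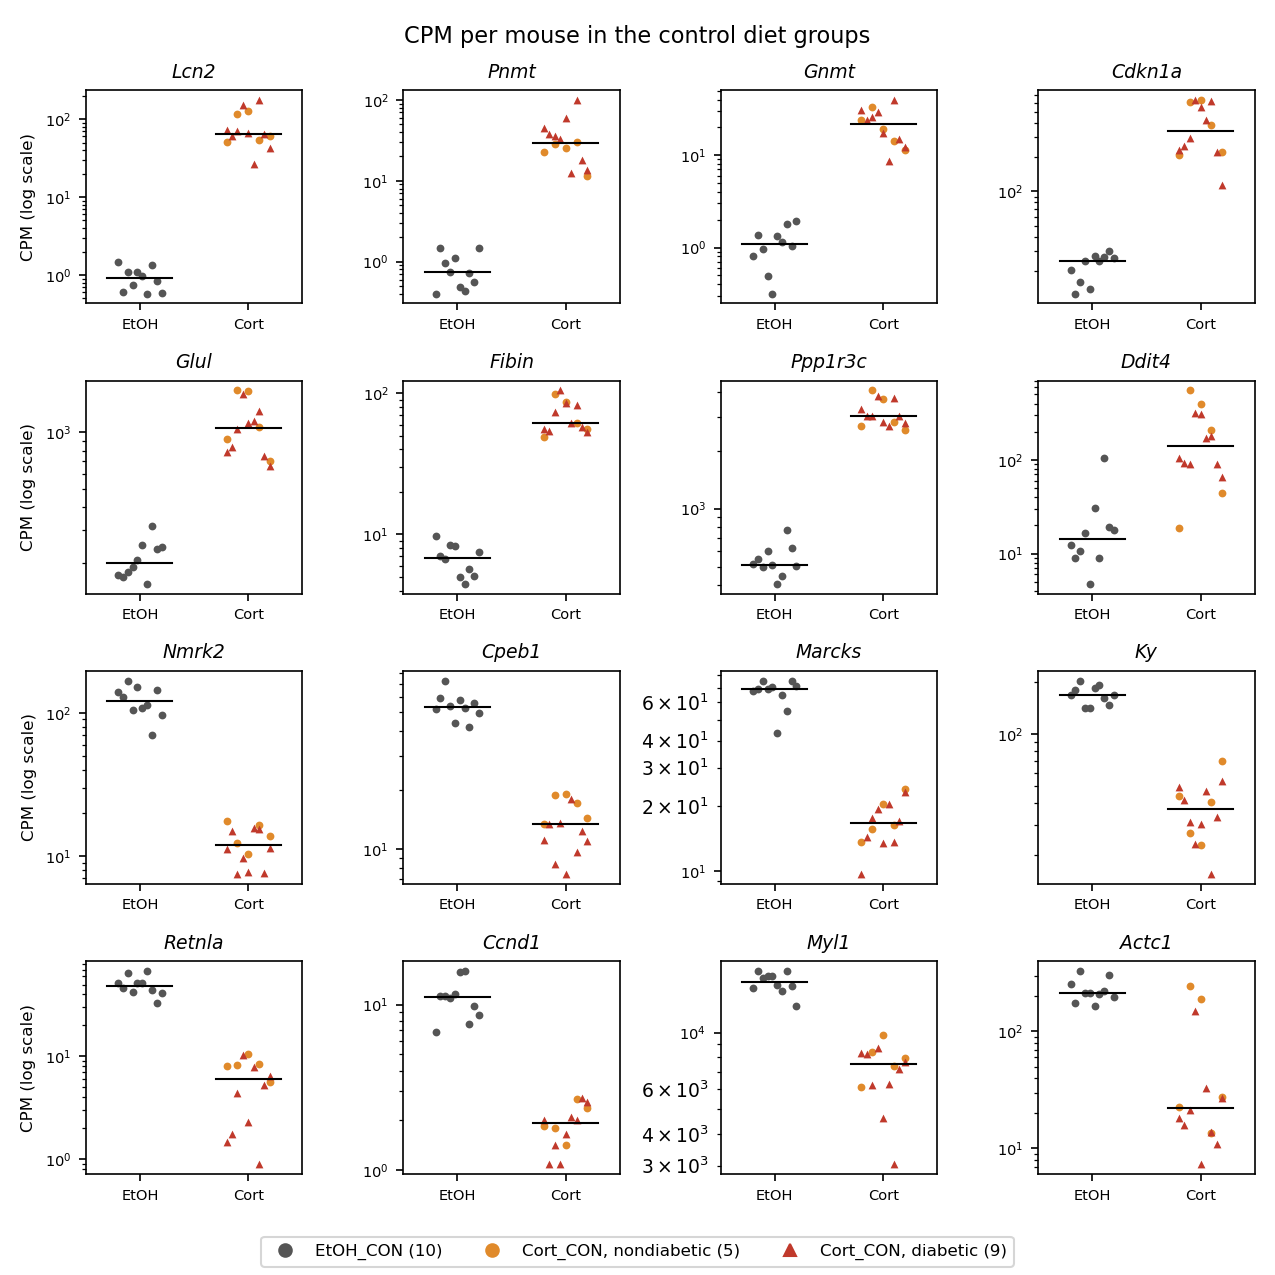
CPM per mouse (vertical axes, log scale) of 16 genes in EtOH_CON (grey circles) and Cort_CON (orange circles nondiabetic, red triangles diabetic). Black lines are group medians. In most panels the groups do not overlap, while Ddit4 and Actc1 show overlap and a wide spread among Cort_CON mice.

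At the bottom of the list stood genes of cells other than muscle fibres. Cd74, of the invariant chain, and its class II antigen-presentation partners H2-Aa, H2-Eb1 and H2-Ab1 went from medians of 23.9, 47.4, 25.4 and 27.7 CPM to 1.26, 2.99, 1.41 and 1.9 CPM. Matrix genes followed: Col1a1 ran from 148 to 403 CPM (median 232) in EtOH_CON and from 6.77 to 35.5 CPM (median 18.5) in Cort_CON, and Col3a1, Col1a2, Col6a3 and the basement membrane collagen Col15a1 were at -2.99 (SE 0.21), -2.98 (SE 0.19), -2.46 (SE 0.17) and -3.13 (SE 0.21). The cartilage and tendon genes Cilp2, Chad and Tnmd were at -3.77 (SE 0.25), -2.44 (SE 0.34) and -2.86 (SE 0.25). Retnla, a resistin-like gene of alternatively activated macrophages, ran from 33 to 67.8 CPM (median 48.9) in EtOH_CON and from 0.88 to 10.4 CPM (median 5.99) in Cort_CON, and the interferon-induced GTPase gene Iigp1 was at -2.14 (SE 0.23). In all of these genes every Cort_CON mouse lay below every EtOH_CON mouse. Fewer cells of a type and less RNA per cell cannot be told apart in whole muscle.

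Summed marker levels moved with these genes. Fibro-adipogenic markers ran from 1421 to 2241 CPM (median 1693) in EtOH_CON and from 870.7 to 1694 CPM (median 1152) in Cort_CON, with 0 of 7 higher and 6 lower. Tenocyte markers went from a median of 329.6 (230.2 to 465.6) to 152.1 CPM (89.3 to 229.9), with 3 of 5 lower and 1 higher. The higher 1 was Scx, which rose by 0.80 (SE 0.21, adjusted p = 0.00154), and Mkx did not pass, so tendon genes did not all fall. Macrophage markers went from 95.4 (73.6 to 130.9) to 81.5 CPM (54.4 to 107), with 3 of 6 lower. Of the genes listed for lymphocytes, Ighm and Ptprc fell, and Cd3e and Cd79a were not among the genes counted. The sum went from a median of 47.7 (26.8 to 120.1) to 9.11 CPM (1.13 to 44.2). It was mostly Ighm, with means of 57.3 and 14.2 CPM in EtOH_CON and Cort_CON, against 2.50 and 0.76 CPM for Ptprc. It thus does not show a fall of lymphocytes as a class. Endothelial markers were lower in 4 of 6 and higher in 1, with medians of 447.6 (369.9 to 506.5) and 379.6 CPM (285.5 to 516.8). Smooth muscle and pericyte markers were lower in 3 of 5, neutrophil markers in 2 of 3 and Schwann cell markers in 2 of 5, with none higher, and of 5 adipocyte markers 1 was higher and 1 lower. Erythroid markers rose in 4 of 5, from a median of 904.8 (719.5 to 1090.0) to 1345 CPM (738.4 to 1742), with Hbb-bs at 0.59 (SE 0.16), and the satellite cell sum went from 22.3 (15.6 to 24.03) to 36.1 CPM (28.9 to 59.2). Of the 4 satellite cell markers Cdh15 and Sdc4 rose, by 0.83 and 1.01, while the defining Pax7 was at -0.93 (SE 0.27, adjusted p = 0.00392) and Myf5 did not pass. Fibre markers were high in every library, at 108500 to 142400 CPM in EtOH_CON and 128800 to 172300 in Cort_CON, with 5 of 10 higher and 1 lower, so the defining genes of muscle fibres were abundant in all 24. The part of these shifts in the fall of matrix and antigen-presentation genes was not tested.

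Several large falls were in genes known from muscle fibres or from most cells. Nmrk2, the muscle form of nicotinamide riboside kinase, which feeds the synthesis of NAD (chromosome 10, 81198170 to 81202051), ran from 69.7 to 167 CPM (median 121) in EtOH_CON and from 7.45 to 17.5 CPM (median 11.9) in Cort_CON (log2 fold change -3.32, SE 0.28, adjusted p = 1.31e-13). Ky, which encodes a muscle protease-like protein whose loss causes kyphoscoliosis in mice (chromosome 9, 102505750 to 102546239), ran from 141 to 204 CPM (median 169.5) in EtOH_CON and from 15.5 to 70.4 CPM (median 36.9) in Cort_CON (log2 fold change -2.16, SE 0.18, adjusted p = 6.68e-14). The groups were apart in both genes. Nrep ran from 119.8 to 154 CPM (median 136) in EtOH_CON and from 4.02 to 42.4 CPM (median 24.1) in Cort_CON (log2 fold change -2.48, SE 0.24, adjusted p = 1.85e-11), with a much wider range in Cort_CON than in EtOH_CON. Dbp, a circadian output factor, was at -3.02 (SE 0.18) and Cited4, a transcriptional co-regulator, at -2.36 (SE 0.18). By p, the leading falls were Cpeb1, a regulator of mRNA polyadenylation and translation, which ran from 42 to 72.7 CPM (median 53.3) in EtOH_CON and from 7.42 to 19 CPM (median 13.4) in Cort_CON (log2 fold change -2.01, SE 0.11, adjusted p = 6.56e-21), and Marcks, a protein kinase C substrate, which ran from 43.6 to 75.5 CPM (median 68.8) in EtOH_CON and from 9.7 to 23.8 CPM (median 16.7) in Cort_CON (log2 fold change -1.95, SE 0.12, adjusted p = 8.77e-20). The follistatin-like gene Fstl1 (-1.73, SE 0.11), Tnfaip2 (-1.97, SE 0.13), Col6a1 (-2.04, SE 0.14), Fbn1, of fibrillin (-1.88, SE 0.13), and Smoc2 (-1.15, SE 0.08) completed the 10 smallest p. Small p on the other side went to moderate rises with little spread: Plin4, a lipid droplet coat gene, at 2.17 (SE 0.11), Tmem52 at 1.68 (SE 0.09), Ttll7, of tubulin glutamylation, at 1.59 (SE 0.09), and Aldh1a1, which makes retinoic acid, at 2.32 (SE 0.14).

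Families of transcription factors differed in their balance of calls. Of 12 Krueppel-like factors 6 rose and 2 fell, with a median of 0.291. Klf10 ran from 8.52 to 19.9 CPM (median 14.4) in EtOH_CON and from 26.7 to 96.3 CPM (median 67.2) in Cort_CON (log2 fold change 2.17, SE 0.22, adjusted p = 5.68e-11), while Klf15 and Klf9, known as glucocorticoid-responsive, and Klf13 rose less, by 1.05 (SE 0.17), 0.71 (SE 0.13) and 0.75 (SE 0.13). Among the bZIP factors 8 of 26 rose (30.8%) and 6 fell (23.1%), or 7 and 8 with total counts alone, against 18.9% and 19.5% of all genes. Nfil3, a repressor of the clock output genes, ran from 8.64 to 16.7 CPM (median 13.2) in EtOH_CON and from 42.6 to 111 CPM (median 62) in Cort_CON (log2 fold change 2.38, SE 0.15, adjusted p = 4.41e-18), opposite to Dbp, which binds similar sites. Cebpd and Cebpb rose by 2.61 (SE 0.34) and 1.243 (SE 0.16) and Creb3l1, a regulator of matrix secretion, was at -1.78 (SE 0.21). Immediate early genes were higher in 8 of 21 and lower in 2, among them Jun (1.18, SE 0.12), Btg2 (1.48, SE 0.22) and Ccn1 (1.45, SE 0.28). Nuclear receptors leaned the other way, with 5 of 33 higher and 11 lower: the oxysterol receptor gene Nr1h3 (1.21, SE 0.10) rose, and Esr1, an oestrogen receptor, and Nr1d1, a clock repressor, were at -0.66 (SE 0.09) and -1.04 (SE 0.14). Mrtfa, a co-activator that links actin to transcription, ran from 14.7 to 26.4 CPM (median 16.9) in EtOH_CON and from 3.57 to 8.23 CPM (median 4.9) in Cort_CON (log2 fold change -1.73, SE 0.15, adjusted p = 1.09e-14), and Mrtfb, Srf and Mef2c were at -0.32 (SE 0.08), -0.41 (SE 0.09) and -0.55 (SE 0.13). The class II histone deacetylase genes split, with Hdac5 at 0.42 (SE 0.08) and Hdac4 and Hdac7 at -0.51 (SE 0.11) and -0.43 (SE 0.10).

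Of 37 genes of JAK, STAT and cytokine signalling 6 were higher and 9 lower, of 24 dual-specificity phosphatase and Sprouty genes 3 and 7, of 38 genes of adrenergic and cAMP signalling 7 and 8, and of 22 Notch genes 1 and 4. The share called was near the background of 38.4% in the first 3 lists and below it among Notch genes (22.7%). Il6ra, the interleukin 6 receptor, ran from 4.14 to 11.6 CPM (median 6.36) in EtOH_CON and from 23.7 to 66.9 CPM (median 40.5) in Cort_CON (log2 fold change 2.69, SE 0.20, adjusted p = 4.64e-15), whereas Ifngr2, of the interferon gamma receptor, and Jak2, a kinase behind many cytokine receptors, were at -0.69 (SE 0.09) and -0.51 (SE 0.09). TGF-beta and BMP genes were lower in 19 of 44 and higher in 10. Smad3, which carries the TGF-beta signal to the nucleus, ran from 64.2 to 92.9 CPM (median 76.1) in EtOH_CON and from 19 to 56.2 CPM (median 31.9) in Cort_CON (log2 fold change -1.19, SE 0.13, adjusted p = 9.3e-11), and the binding protein gene Ltbp4 and receptor gene Acvr1 were at -1.242 (SE 0.14) and -0.95 (SE 0.11). Of 35 Wnt genes 14 fell and 2 rose, with the receptors Fzd9 and Fzd7 at -1.17 (SE 0.13) and -0.59 (SE 0.12) and Fzd4 at 0.78 (SE 0.14). The phosphatase gene Dusp7, which acts on ERK, rose by 1.85 (SE 0.12) and Dusp10, which acts on p38 and JNK, was at -1.38 (SE 0.17). All 5 IGF binding protein genes were called: Igfbp5 ran from 262 to 395 CPM (median 324) in EtOH_CON and from 20.6 to 189.7 CPM (median 97.6) in Cort_CON (log2 fold change -1.66, SE 0.25, adjusted p = 6.69e-07), Igfbp7 and Igfbp6 were at -0.82 (SE 0.11) and -0.49 (SE 0.10), and Igfbp3 rose by 1.19 (SE 0.19). Growth factors Fgf1 and Fgf2 rose by 0.87 (SE 0.11) and 0.73 (SE 0.13), and the secreted Angptl2 and Metrn were at -1.69 (SE 0.15) and -0.84 (SE 0.15). The cAMP phosphodiesterase gene Pde4a was at -1.26 (SE 0.12).

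Chemokine and complement genes were more often lower than higher. Of 18 chemokine and receptor genes 10 fell and 2 rose, with a median of -0.674. Cxcl12, a stromal chemokine, ran from 30.7 to 54.7 CPM (median 40.6) in EtOH_CON and from 12.4 to 24.8 CPM (median 17.5) in Cort_CON (log2 fold change -1.27, SE 0.10, adjusted p = 1.89e-16) and its scavenging receptor gene Ackr3 from 9.45 to 12.9 CPM (median 11.3) in EtOH_CON and from 4.07 to 7.82 CPM (median 5.65) in Cort_CON (log2 fold change -1.02, SE 0.09, adjusted p = 1.31e-13). Cxcl13, the B cell chemokine, went against them and ran from 0 to 3.52 CPM (median 0.736) in EtOH_CON and from 4.07 to 26.2 CPM (median 6.47) in Cort_CON (log2 fold change 2.99, SE 0.49, adjusted p = 3.02e-06). No complement gene of 21 was higher and 10 were lower (4 with the nondiabetic mice alone), Cfd, of adipose tissue, at -2.12 (SE 0.34), C1s1 and C1ra, the first proteases of the classical pathway, at -0.79 (SE 0.13) and -0.76 (SE 0.13), and their inhibitor Serping1 at -0.49 (SE 0.09). The background for such counts is 18.9% higher and 19.5% lower.

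Families that shape the space around cells had more lower than higher members. ADAM, ADAMTS and matrix metalloprotease genes, with their inhibitors, were lower in 17 of 30 and higher in 4, Mmp2, a gelatinase, at -1.96 (SE 0.15), Mmp15 at -1.05 (SE 0.12) and the inhibitor Timp2 at -0.88 (SE 0.11). Integrins were lower in 9 of 24 and higher in 2, with Itgb6, which activates TGF-beta, at -1.55 (SE 0.16) and the laminin receptor gene Itga6 at -0.96 (SE 0.13). Among laminins, type IV collagens and associated basement membrane genes 11 of 17 fell and 1 rose, Hspg2, of perlecan, at -0.66 (SE 0.13), Nid1, of nidogen, at -0.75 (SE 0.16) and Lamb1 at -0.58 (SE 0.12). Guidance molecules, which steer axons and vessels, were lower in 16 of 41 and higher in 4, with the semaphorin receptor genes Nrp1, Nrp2 and Plxna1 at -0.79 (SE 0.11), -0.83 (SE 0.15) and -0.97 (SE 0.15). Serpinf1 and Serpinh1, the latter a collagen chaperone, were at -1.91 (SE 0.15) and -1.33 (SE 0.12), in a serpin list with 7 of 13 lower and 3 higher. Lysosomal cathepsins were lower in 5 of 11 and higher in 0, among them Ctsc (-0.57, SE 0.08) and Ctsh (-0.72, SE 0.11).

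**Figure D4:**
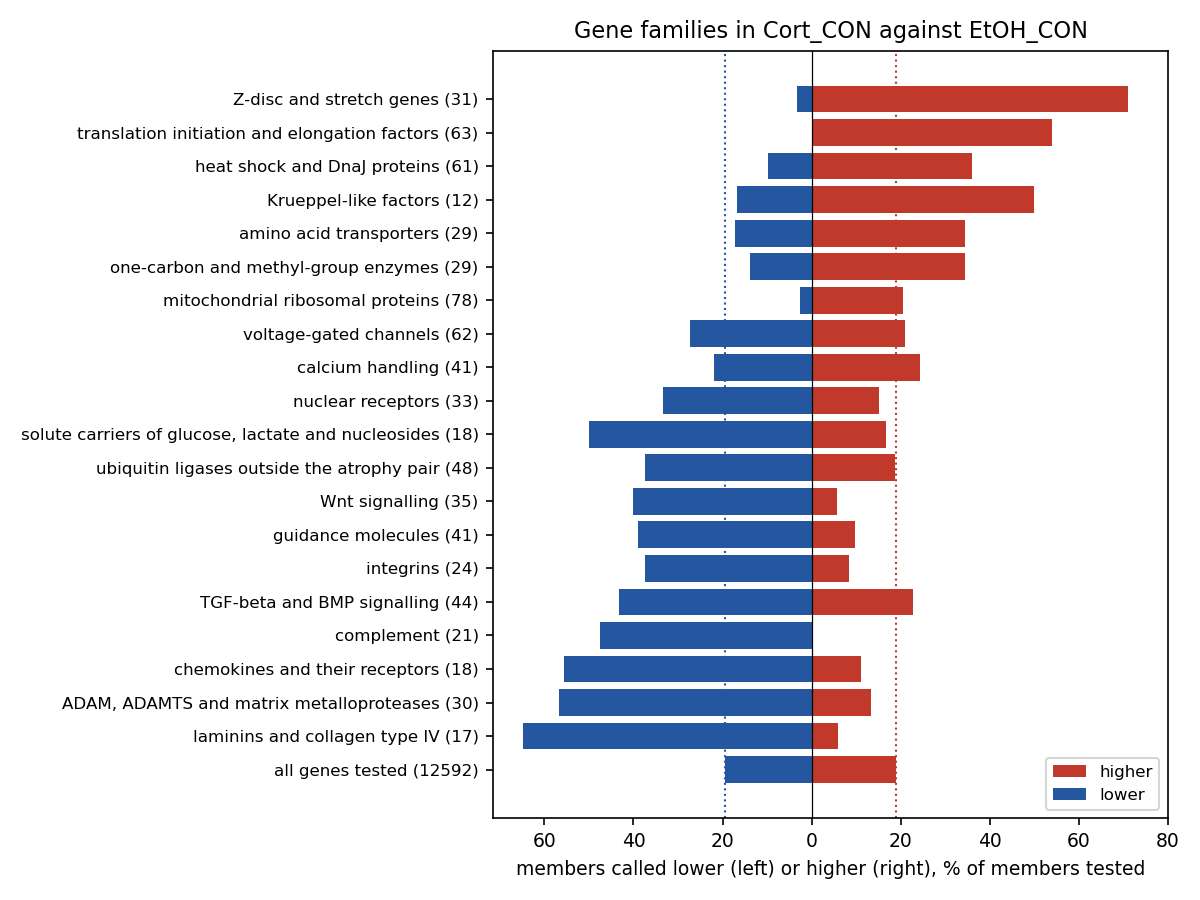
Members called lower (blue, to the left) and higher (red, to the right) in percent of the members tested, for gene families chosen with earlier results known. The number tested is in brackets after each name. Z-disc genes (22 of 31) and translation factors (34 of 63) stand furthest to the right, and, of the families plotted, matrix proteases (17 of 30) and laminins (11 of 17) furthest to the left.

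Z-disc and stretch genes had the largest share of higher members among the families with more than 1 member tested, 22 of 31 with 1 lower and a median of 0.663, and 21 of 31 with total counts alone. The Z-disc anchors the thin filaments at the ends of each sarcomere. Actn3, the alpha-actinin of fast fibres, ran from 2014 to 3123 CPM (median 2764) in EtOH_CON and from 4134 to 6628 CPM (median 5395) in Cort_CON (log2 fold change 1.03, SE 0.08, adjusted p = 1.11e-15), the intermediate filament gene Des from 1073 to 2479 CPM (median 1958) in EtOH_CON and from 2965 to 5718 CPM (median 3982) in Cort_CON (log2 fold change 1.15, SE 0.12, adjusted p = 1.04e-11), and Pdlim5 from 161 to 261 CPM (median 231) in EtOH_CON and from 453 to 798 CPM (median 591) in Cort_CON (log2 fold change 1.49, SE 0.11, adjusted p = 2e-16). In these genes, and in Myot, of myotilin (1.05, SE 0.08), the groups did not overlap. The titin cap gene Tcap rose by 0.71 (SE 0.09), with overlap.

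Abundant contractile genes moved by less and in both directions. Summed over genes with a higher mean, the rise was 137153 CPM, of which 28 genes made up 50%, and the summed fall was -56057.9 CPM, of which 14 genes made up 50%. After TMM scaling the CPM of a library need not sum to a fixed total. The excess of the rise over the fall thus belongs to the scale and is no gain of RNA. Mylpf, the regulatory light chain of fast myosin, ran from 7014 to 13851 CPM (median 11181) in EtOH_CON and from 12956 to 28518 CPM (median 16484) in Cort_CON (log2 fold change 0.64, SE 0.11, adjusted p = 3.99e-06), while Myl1, the fast essential light chain, ran from 12711 to 17467 CPM (median 15877) in EtOH_CON and from 3034 to 9821 CPM (median 7517) in Cort_CON (log2 fold change -1.14, SE 0.14, adjusted p = 2.5e-09). The light chains thus went opposite ways, without overlap in Myl1 and with overlap in Mylpf. Tpm1, of tropomyosin, was at -0.37 (SE 0.11), and the calcium buffers Pvalb, parvalbumin, and Casq1, calsequestrin, at -0.51 (SE 0.13) and -0.51 (SE 0.10). Aldoa, an aldolase, rose by 0.50 (SE 0.08), Atp2a1, the calcium pump of fast fibres, by 0.48 (SE 0.06) and Trdn, of the calcium release complex, by 0.47 (SE 0.09). Small shifts of the most abundant RNAs were less firm. Acta1, skeletal actin (0.19, SE 0.07, adjusted p = 0.0264), missed the threshold without EtOH_CON mouse 4, 10 or 16 or Cort_CON mouse 27 or 28, at adjusted p of 0.0505 to 0.0633. The mitochondrial gene mt-Nd1 (0.21, SE 0.08, adjusted p = 0.0243) did so without EtOH_CON mouse 3 or 4 (adjusted p of 0.0568 to 0.061). With total counts alone neither passed (0.07 and 0.10).

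Calcium handling and channel genes went both ways. Sln, sarcolipin, a small inhibitor of the calcium pump, ran from 0.859 to 4.74 CPM (median 2.18) in EtOH_CON and from 4.0 to 116 CPM (median 14.1) in Cort_CON (log2 fold change 3.39, SE 0.68, adjusted p = 8.12e-05), and 1 Cort_CON mouse, number 45, was far above the others, with a rise of 2.85 without it. Casq2, the cardiac and slow form of calsequestrin, rose by 0.998 (SE 0.15), opposite to Casq1, and Camk2b, of a calcium-dependent kinase, by 0.61 (SE 0.06), while Calm2, of calmodulin, was at -0.80 (SE 0.11). Over the 41 calcium handling genes 10 rose (24.4%) and 9 fell (22%), or 7 and 14 with total counts alone. Over all genes 18.9% were higher and 19.5% lower. Potassium channel genes had some of the larger rises: Kcnf1 ran from 1.87 to 5.85 CPM (median 4.3) in EtOH_CON and from 16.6 to 51.9 CPM (median 33) in Cort_CON (log2 fold change 2.97, SE 0.23, adjusted p = 4.52e-15) and Kcnj12, an inward rectifier, from 10.7 to 18.8 CPM (median 16.4) in EtOH_CON and from 30.5 to 67.2 CPM (median 43.7) in Cort_CON (log2 fold change 1.56, SE 0.12, adjusted p = 7.18e-16), whereas Kcnj8, the pore of the vascular ATP-sensitive channel, was at -0.94 (SE 0.14). Of 62 voltage-gated and related channel genes 13 were higher (21%) and 17 lower (27.4%).

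Enzymes and carriers of sugar and glycogen changed one by one. Ppp1r3c, which brings protein phosphatase 1 to glycogen, ran from 406 to 771 CPM (median 511) in EtOH_CON and from 2562 to 4099.7 CPM (median 3018) in Cort_CON (log2 fold change 2.54, SE 0.13, adjusted p = 6.91e-23), and its relative Ppp1r3d rose by 0.85 (SE 0.14). The glucose transporter gene Slc2a3 rose by 1.498 (SE 0.16) and the lactate exporter gene Slc16a3 by 0.67 (SE 0.11), in a carrier list with 3 of 18 higher and 9 lower. Pgam2, a glycolytic mutase, was at -0.48 (SE 0.14) and Pygm, glycogen phosphorylase, at -0.23 (SE 0.08), while the glycolytic Aldoa rose by 0.50 (SE 0.08). Eno3, muscle enolase (-0.28, SE 0.11, adjusted p = 0.0369), missed the threshold without EtOH_CON mouse 2 or 12 or Cort_CON mouse 35 or 45 (adjusted p of 0.0518 to 0.0633). Car3, the carbonic anhydrase of slow fibres and fat, ran from 2676 to 4297 CPM (median 3201) in EtOH_CON and from 397 to 4172 CPM (median 1226) in Cort_CON (log2 fold change -0.94, SE 0.27, adjusted p = 0.00476), a range in Cort_CON that reached into that of EtOH_CON.

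Amino acid and methyl group enzymes rose in part. Glul, glutamine synthetase, ran from 154 to 316 CPM (median 198) in EtOH_CON and from 662 to 1679 CPM (median 1062) in Cort_CON (log2 fold change 2.37, SE 0.17, adjusted p = 2.36e-16), Oat, ornithine aminotransferase, from 74.9 to 113 CPM (median 96.1) in EtOH_CON and from 145 to 301 CPM (median 222) in Cort_CON (log2 fold change 1.17, SE 0.09, adjusted p = 5.71e-16), and Prodh, proline dehydrogenase, rose by 1.11 (SE 0.13). Groups were apart in Glul and Oat. Of 28 genes of amino acid breakdown and synthesis, however, 8 rose (28.6%) and 7 fell (25%), or 8 and 9 with total counts alone. Over all genes the shares were 18.9% and 19.5%. Of 29 amino acid transporters 10 rose and 5 fell, with Slc38a3, a glutamine carrier, at 0.82 (SE 0.11) and Slc7a2, of cationic amino acids, at 0.72 (SE 0.14). One-carbon and methyl-group enzymes were higher in 10 of 29 and lower in 4, but higher in 6 and lower in 7 with total counts alone. Inmt, an indolethylamine methyltransferase, rose by 1.26 (SE 0.14). Several creatine genes fell: Gamt, which makes creatine, ran from 12.2 to 16.8 CPM (median 14.6) in EtOH_CON and from 1.13 to 8.43 CPM (median 4.66) in Cort_CON (log2 fold change -1.61, SE 0.20, adjusted p = 2.92e-09), and the creatine transporter gene Slc6a8 and brain-type creatine kinase gene Ckb were at -0.43 (SE 0.07) and -1.26 (SE 0.13). The polyamine enzyme gene Amd1 ran from 315 to 809 CPM (median 658) in EtOH_CON and from 75.1 to 341 CPM (median 252) in Cort_CON (log2 fold change -1.41, SE 0.21, adjusted p = 2.92e-07). In the list of purine and phosphagen genes, which holds Gamt, Slc6a8 and Ckb, 9 of 26 fell and 2 rose, and the main muscle creatine kinase gene Ckm did not pass (0.19, adjusted p = 0.119).

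Lipid, redox and metal genes were mixed. Phospholipid and triglyceride synthesis genes were higher in 11 of 35 and lower in 6, which turned to 7 and 10 with total counts alone, with Lpcat3 at 0.58 (SE 0.09) and the glycerophosphate dehydrogenase gene Gpd2 at -0.79 (SE 0.11). Of 30 sphingolipid genes 11 fell and 1 rose, most by less than 1 on the log2 scale, with the ceramide-making Degs1 at -0.26 (SE 0.07). The phospholipase genes Pla2g12a and Pla2g16 went opposite ways, at 0.60 (SE 0.08) and -0.50 (SE 0.07). Among antioxidant genes 11 of 47 rose (23.4%) and 12 fell (25.5%), against 18.9% and 19.5% of all genes. Gpx3, the secreted glutathione peroxidase, ran from 157 to 262 CPM (median 179.7) in EtOH_CON and from 282 to 713 CPM (median 390.0) in Cort_CON (log2 fold change 1.06, SE 0.12, adjusted p = 6.39e-10). Nqo1 and Gsta4, both known targets of the factor NRF2, were at -0.75 (SE 0.12) and -0.87 (SE 0.14). In haem and iron metabolism Alas1, the rate-limiting enzyme of haem synthesis outside red cells, rose by 1.003 (SE 0.11) and Steap3, a ferrireductase, was at -1.20 (SE 0.11). Cyp26b1, which breaks down retinoic acid, was at -2.07 (SE 0.38) beside the rise of Aldh1a1, with EtOH_CON mice from 11.5 to 215 CPM.

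Translation factors rose widely: 34 of 63 were higher and 0 lower, with a median of 0.225, and 19 were higher and 2 lower with total counts alone. Changes were small in most. Eif3f, a subunit of initiation factor 3, ran from 93.6 to 133 CPM (median 118) in EtOH_CON and from 154 to 238 CPM (median 187) in Cort_CON (log2 fold change 0.74, SE 0.07, adjusted p = 6.71e-13), and Eif4g2 and Eef1b2 rose by 0.40 (SE 0.06) and 0.47 (SE 0.08). Eef2k, the kinase that holds back elongation, was also among the higher genes, at 1.19 (SE 0.12). In the list of nutrient sensors and translation brakes 12 of 34 were higher and 7 lower, or 8 and 12 with total counts alone, with Ddit4l, an inhibitor of mTOR signalling, at -1.13 (SE 0.11) and Fnip1, a folliculin partner, at -0.73 (SE 0.07). Ddit4, its relative, ran from 4.74 to 106 CPM (median 14.5) in EtOH_CON and from 18.7 to 552 CPM (median 139) in Cort_CON (log2 fold change 2.99, SE 0.54, adjusted p = 1.56e-05). EtOH_CON mouse 12 was far above its group in Ddit4, and without it the rise was 3.70.

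Chaperone and protein turnover genes changed both ways. Heat shock and DnaJ genes were higher in 22 of 61 and lower in 6, but 11 and 11 with total counts alone. Dnajb4 rose by 0.68 (SE 0.08) and Hspb6, abundant in muscle, by 0.76 (SE 0.11), while Hspb8 was at -0.58 (SE 0.11). Mitochondrial ribosomal protein genes were higher in 16 of 78 and lower in 2, a share of higher members near the background, and 8 and 11 with total counts alone. Among ubiquitin ligases other than Trim63 and Fbxo32, 9 of 48 rose and 18 fell. Those that rose included Asb11 (1.04, SE 0.08), Asb4 (0.93, SE 0.10), Trim54, a relative of Trim63 (0.74, SE 0.09), and Cblb, which targets insulin receptor substrate (1.07, SE 0.13). Capn2, of a calpain protease, rose by 0.63 (SE 0.10), the only member of 18 calpains and caspases that was higher, with 5 lower. Of 40 genes of mitochondrial biogenesis and dynamics 6 rose and 3 fell, or 3 and 6 with total counts alone, with the mitophagy receptor gene Bnip3 at 0.56 (SE 0.08) and the co-activator gene Ppargc1b at -0.81 (SE 0.11).

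Some genes of very low level differed in every mouse. Glra3, of a glycine receptor, had 0 counts in all EtOH_CON libraries and 302 in the Cort_CON libraries. Against a floor of 3 counts over the EtOH_CON group this was 74.4-fold higher, counting error only. All counts were even, and if they come in steps of 2 this floor is too low and the fold too large. Doc2b, of vesicle release, ran from 0.123 to 0.68 CPM (median 0.261) in EtOH_CON and from 1.65 to 16.7 CPM (median 3.38) in Cort_CON, the glutamate transporter gene Slc17a7 from 0 to 0.158 CPM (median 0.0468) in EtOH_CON and from 0.384 to 4.16 CPM (median 0.874) in Cort_CON and the calcium channel gene Cacna1i from 0 to 0.485 CPM (median 0.0468) in EtOH_CON and from 0.676 to 3.87 CPM (median 1.86) in Cort_CON. These genes are best known from neurons, and every Cort_CON mouse was above every EtOH_CON mouse. On the other side were Aplnr, the apelin receptor gene, which ran from 0.242 to 3.94 CPM (median 1.43) in EtOH_CON and from 0 to 0.219 CPM (median 0.0445) in Cort_CON, Slc6a2, the noradrenaline transporter gene, which ran from 0.605 to 1.72 CPM (median 1.06) in EtOH_CON and from 0 to 0.438 CPM (median 0) in Cort_CON, and Kera, of the cornea and tendon matrix protein keratocan, which ran from 2.59 to 8.14 CPM (median 5.76) in EtOH_CON and from 0 to 2.2 CPM (median 0.433) in Cort_CON. Fam167a, Ppm1n and Cd83 were also apart, and so were Gna14 and Ccnjl among the risers. Values this low rest on few counts per library.

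A set of abundant genes moved least. Among genes of at least 100 CPM, those whose 95% interval reached least far from 0 were Egln1, the oxygen-sensing prolyl hydroxylase gene, Hdgf, Rab6a, Smyd1, a muscle histone methyltransferase gene, Prkar1a, Mmadhc, Rad23b, Sypl, Socs7 and Larp1b. Egln1 ran from 172 to 230.5 CPM (median 192) in EtOH_CON and from 161 to 218 CPM (median 198) in Cort_CON, with a log2 fold change between -0.11 and 0.11 (95% interval). Hdgf ran from 348 to 449.9 CPM (median 390.1) in EtOH_CON and from 354 to 429 CPM (median 387) in Cort_CON and Smyd1 from 331 to 395 CPM (median 356) in EtOH_CON and from 292 to 409 CPM (median 355) in Cort_CON, with intervals from -0.12 to 0.08 and from -0.12 to 0.11. These bounds hold on the TMM scale, and with total counts alone Hdgf was lower (-0.13, adjusted p = 0.0354).

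Of 12 mitochondrial transfer RNA genes 8 were higher and 0 lower, with a median of 0.963, and of all 22 genes of the mitochondrial genome 12 were higher and 0 lower. These small RNAs lie next to protein and ribosomal RNA genes, from which reads may reach them. Processed pseudogenes, whose reads may come from their parent genes, were higher in 23 of 181 (12.7%) and lower in 3 (1.66%). Over all genes the shares were 18.9% and 19.5%. Of 181 long intergenic RNAs 33 were higher (18.2%) and 32 lower (17.7%), near those shares, and of 169 antisense RNAs 33 (19.5%) and 24 (14.2%). Among changes of at least 2-fold both classes leaned higher, with 17 and 8 long intergenic and 11 and 6 antisense RNAs, against 351 and 590 of all genes. Such changes made up 13.8% and 10.1% of the 2 classes and 7.47% of all genes. H19, an imprinted noncoding RNA, rose by 0.74 (SE 0.18) and Meg3, another, was at -0.61 (SE 0.11).

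Cort_CON mice differed more from each other than EtOH_CON mice did in many genes. The median SD of log2 CPM over genes was 0.287 in EtOH_CON and 0.321 in Cort_CON, and 7798 of 12592 genes had the larger SD in Cort_CON. Actc1, cardiac actin, ran from 166 to 329 CPM (median 214) in EtOH_CON and from 7.3 to 247 CPM (median 22.1) in Cort_CON. Cort_CON mice 32, 33 and 34 were at 247, 188 and 149.8 CPM, within or near the EtOH_CON range, and the other 11 at or below 33.2. The same 3 mice had the highest Cort_CON levels of Ighm, the immunoglobulin heavy chain gene, at 43, 40.03 and 43.4 CPM against 12 or less in the others, and of Ddit4, at 552, 398 and 317 CPM. They also carry the 3 lowest insulin values of the group, 14.5, 9.31 and 16.8 in the labels' unit, which is not stated. Without these 3 mice, a choice made after their values were seen, 4630 genes were called, 2230 higher and 2400 lower, and 4318 were shared with the full comparison in the same direction. The near-identical heat shock genes Hspa1a and Hspa1b were high in mice 29, 30 and 32, at 47.7, 75.7 and 44.5 CPM for Hspa1a against an EtOH_CON maximum of 11.2. Hspa1b, at 1.34 (SE 0.43), missed the threshold without Cort_CON mouse 30 (0.91, adjusted p = 0.0605). Scd1, a fatty acid desaturase, ran from 27 to 183 CPM (median 51.4) in EtOH_CON and from 7.04 to 268 CPM (median 131) in Cort_CON (log2 fold change 1.14, SE 0.39, adjusted p = 0.0173), and Cish, a cytokine signalling inhibitor, did not pass (log2 fold change -0.43, SE 0.53, adjusted p = 0.555).

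The response was present in Cort_CON mice of both disease states. The nondiabetic Cort_CON mice still had insulin of 9.31 to 38.7, against 1.19 to 3.46 in EtOH_CON, in the labels' unit. Nondiabetic mouse 36 had fed glucose of 242, close to the 254 of diabetic mouse 37. Against the same EtOH_CON mice, the 5 nondiabetic Cort_CON mice gave 2856 called genes, 1380 higher and 1476 lower, of which 2766 were called in the same direction over all 14, and the 9 diabetic mice gave 4483. The numbers of mice differ, so the counts do not compare the states. The 19 risers and 20 fallers shown among the largest all kept their direction and passed in each subset. They were picked by their change over all 14 mice, which include both subsets, so that outcome was largely set by the choice. Lcn2 was at 6.43 with the nondiabetic and 6.42 with the diabetic mice, Cdkn1a at 4.20 and 4.06, and Nmrk2 at -3.12 and -3.45. Genes that missed the threshold with the nondiabetic mice alone included Actc1 (-1.20), Car3 (-0.55), Tpm1 (-0.31), Pygm (-0.12), Eno3 (-0.13) and Pgam2 (-0.30). Of the Cort_CON mice high in Actc1 and low in insulin, 32 and 33 are in this nondiabetic subset and 34 is labelled diabetic. A difference between the states was not tested here.

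**Figure D5:**
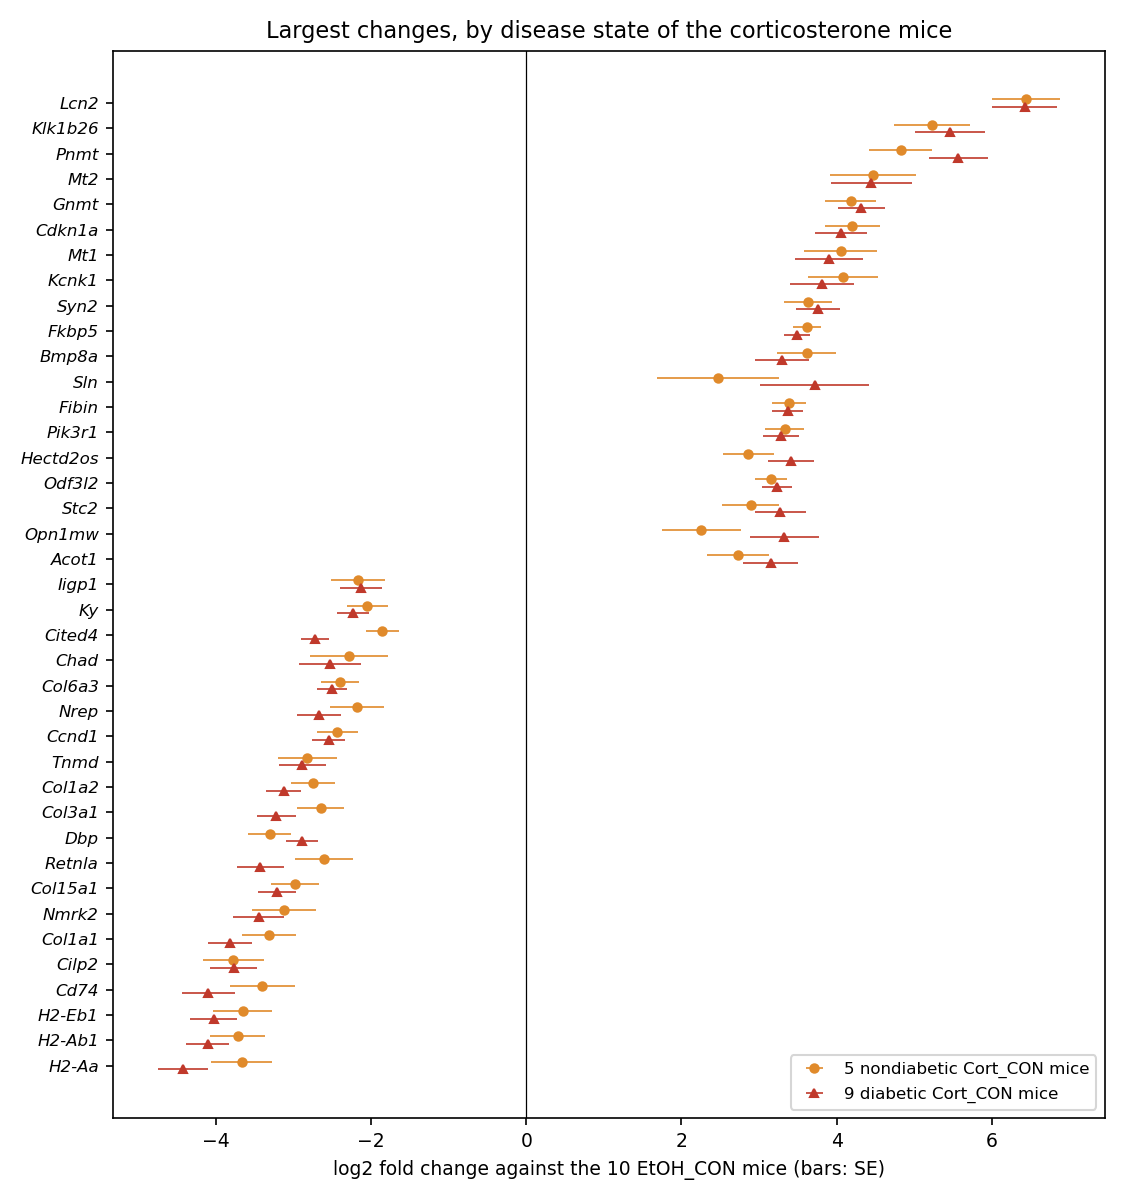
Log2 fold change against the 10 EtOH_CON mice (horizontal axis, bars SE) of 19 of the most risen and the 20 most fallen genes, with only the 5 nondiabetic (orange circles) or only the 9 diabetic (red triangles) Cort_CON mice. In every gene both points lie on the same side of 0.

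A difference between the response on the control diet and that on the atglistatin diet passed the test in few genes. All mice on the atglistatin diet are labelled nondiabetic and most Cort_CON mice diabetic, so diet and diabetes are partly mixed in this comparison. The interaction of water and diet passed in 5 of 12592 genes (0.0397%), with 15 by DESeq2 and 7 by limma voom. Fkbp5 was the only one among the largest changes: its rise was greater on the control diet by 1.07 on the log2 scale (SE 0.198, adjusted p = 0.0121; 0.99 with adjusted p = 0.127 with total counts alone). The other four, named because they passed, were Tmem52 (0.57, SE 0.12, adjusted p = 0.0427), Lonrf1 (-0.84, SE 0.17, adjusted p = 0.0176), Sparc, of a collagen-binding matrix protein (-0.70, SE 0.13, adjusted p = 0.0121), and Itgb5 (-0.50, SE 0.10, adjusted p = 0.0176). On the control diet Lonrf1 was at -0.95 (SE 0.12), Sparc at -0.63 (SE 0.09) and Itgb5 at -0.45 (SE 0.07). In these genes the SE of the interaction was larger than that of the response on the control diet. A gene that did not pass the interaction test may still respond differently on the diets.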

How the data were processed

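A QuantSeq kit gave 50 bp reads from the 3′ ends of RNA in 48 gastrocnemius samples, per the labels' protocols. The authors deposited a table of raw counts for 14125 genes; build GRCm38, R 3.6.1 and DESeq2 1.24.0 are named in the submitters' processing notes. Not given in the sources used here are the aligner, counter, strand setting and annotation. All deposited counts of the 24 libraries compared were even numbers. The reason is not stated, and they were tested as deposited. A deposited table of normalized values was not used here. Symbols and coordinates came from GENCODE M21 (GRCm38), which matched 14094 of the genes.

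Samples were grouped by their labels. Genes were kept by filterByExpr over the 4 groups (minimum count 10, minimum total 15), which removed 1533. Library sizes were scaled by TMM. All 48 libraries entered 1 fit of edgeR 4.0.16 (R 4.3.3; quasi-likelihood, robust, two-sided), with Benjamini-Hochberg adjustment over 12592 genes and a threshold of 0.05. Every adjusted p of a gene is from that test unless another tool is named. SE is the log2 fold change over the root of F, and CPM were computed from the counts. The fit was tested on simulated data. Intervals of log2 fold changes are at 95%.

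Alternatives were other scalings, no filter or a minimum count of 50, DESeq2 1.42.0, limma 3.58.1 voom, halved counts, only the 24 libraries, each disease state alone and each library left out. Genes were named by a rule: among called genes averaging 5 CPM or more, with an established symbol, the 20 largest rises and falls, the 10 largest in CPM and the 10 smallest p each way, and up to 4 members of each gene family with the smallest p. To these came the 10 of at least 100 CPM nearest to no change, the 8 with the largest spread in Cort_CON, and 6 each way of low genes without overlap. Some genes picked by the rule are not reported here. Lists, members and tests were chosen with earlier results of these data known.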

Additional observations from a re-analysis of the deposited data

Results flagged for a closer look

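In each of 230 named genes the highest and the lowest EtOH_CON mouse were compared with the rest of that group. Cort_CON mice were not screened in this way. In 32 genes 1 mouse stood apart by more than 0.466 of the range of the group, and chance alone gives such a gap in about 1 group in 20. In 21 of the 32 it was EtOH_CON mouse 1. It was the highest in Cyp26b1 (214.8 CPM, the next mouse at 83.7), Steap3 (41.4), Col15a1 (30.8), Creb3l1 (18.4), Fam167a (2.003), Hdac7 (45.8), Hspb8 (1507), Igfbp7 (181.5), Ltbp4 (39.5), Mrtfa (26.4), Notch2 (10.95), Nr1d1 (141) and Nrp1 (90.5). It was the lowest in Mef2c (449.3 CPM, the next at 1110.0), Klf9 (79.98, the next at 291.2), Klf13 (24.4), Eef2k (25.0), Fstl1 (19.8), Ppargc1b (9.48), Tcap (1984) and Trdn (4641). Without this mouse the log2 fold change of Cyp26b1 was -1.54 in place of -2.07, that of Klf9 0.59 in place of 0.71 and that of Mef2c -0.64 in place of -0.55.

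EtOH_CON mouse 10 was highest in the metallothioneins Mt2 (100.2 CPM, the next at 33.5) and Mt1 (83.6), and also in Col6a1 (26.0), Cxcl13 (3.52), Il6ra (11.6), Scd1 (182.9) and Timp2 (269.6). EtOH_CON mouse 12 was highest in Ddit4 (106.1 CPM, the next at 30.8) and Cebpd (69.8), mouse 3 in Doc2b (0.68) and mouse 9 in Opn1mw (2.84). With that mouse left out the call held in each of these genes but Notch2, which went from -0.47 (adjusted p = 0.0393) to -0.38 (adjusted p = 0.113).

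The response to corticosterone differed between the diets, by the interaction test of edgeR, in Fkbp5 (1.07 on the log2 scale, larger on the control diet), Tmem52 (0.57), Lonrf1 (-0.84), Sparc (-0.70) and Itgb5 (-0.50). In the last 3 the log2 fold change was lower on the control diet, which does not mean that they fell on both diets. Diabetes, labelled only in Cort_CON mice, was partly mixed with diet in this test.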

How the results depend on the processing

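Over the 300 genes picked by the rule or added, every called gene kept its direction in each alternative in which it was tested. Of genes not called, Cish, Egln1, Hdgf, Larp1b, Mmadhc, Prkar1a, Rab6a, Rad23b, Smyd1, Socs7 and Sypl changed sign in some alternative. Calls were lost in 26 genes with the 5 nondiabetic Cort_CON mice alone, 7 with total counts alone, 5 with the diabetic mice alone, 3 with upper quartile scaling, 1 each (Hspa1b) with limma voom and with only the 24 libraries, and 1 (Notch2) without Cort_CON mice 32, 33 and 34. Leaving out 1 library lost 44 calls in all, in 10 genes. None was lost with DESeq2, DESeq2's size factors, halved counts, no filter on low counts or a minimum count of 50, though halved counts and the minimum count left some genes untested. With total counts alone 1 gene came to pass, 1431 genes were called higher, 181 genes had every Cort_CON mouse above every EtOH_CON mouse, and the interaction passed in 3 genes, with 15 by DESeq2. A minimum count of 50 left 474 genes changed at least 2-fold, 218 higher and 256 lower. With only the nondiabetic mice 2856 genes were called, 1380 higher and 1476 lower, and 1000 did not overlap between the groups, 475 higher and 525 lower; with fewer mice overlap is less likely. With 1 library left out, called genes ranged from 4583 to 4918, 2-fold changes from 910 to 1003 and genes without overlap from 601 to 707. No paired analysis was possible because Cort_CON and EtOH_CON share no replicate numbers. Depth limits the genes under 1 CPM, and the floor used for Glra3 covers counting error only, since the labels name no molecular identifiers, while intervals of log2 fold changes include the spread between libraries.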
